A study of Mus musculus with 18 samples.

Results

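Potassium channel genes were taken as the genes of the mouse gene table whose symbol is Kcn followed by letters and a number, of which 1 was left out by the rule of selection. This gave 91 of 21859 genes, in 20 subfamilies named by the letters after Kcn. The rule used gene names and no measured value. The genes code for subunits of channels that let potassium ions cross a membrane.

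Nascent RNA was measured by TT-seq, in which cells take up 4-thiouridine briefly (5 min) and the RNA that carries it is purified and sequenced, so that a value reflects ongoing transcription more than stored mRNA. The cells were E14 murine embryonic stem (ES) cells, all carrying osTIR1, the plant receptor that directs a tagged protein to degradation when auxin is present. There were 6 groups of 3 libraries. Untagged cells, SPT16_AID_V5 clone 1 and SPT16_AID_V5 clone 2 were each treated for 24 h with ethanol (EtOH, 0.1%) or with the auxin 3-IAA, which depletes SPT16, a subunit of the histone chaperone FACT, only in the tagged clones. The IAA concentration is 500 nM in the labels and 500 µM in the study's methods. Each tagged group is 1 clonal line, and the study treats the clones as biological replicates and the repeats of a clone as technical ones. The value used here is the authors' mean of normalised counts over all 18 libraries. It therefore blends the 4 groups with SPT16 and the 2 groups depleted of it, carries no spread between libraries, and allows no comparison of conditions. All statements below compare genes with each other within this pooled mean, and none was tested.

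Potassium channels set the resting membrane potential and end electrical impulses. Voltage-gated channels open on depolarization, inward rectifiers and two-pore domain channels carry the current at rest, and a further group opens on internal calcium, sodium or a change of pH. Pore-forming subunits assemble with modifier subunits that form no working channel by themselves and with auxiliary subunits that alter gating or trafficking. Many of these genes are best known from neurons, muscle, the inner ear and secretory epithelia.

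The stretches of genomic sequence upstream of the gene starts of 3 two-pore domain genes are shown because these genes span the whole range of levels. Kcnk5 had the highest level of all members, and Kcnk16 is its neighbour on the same strand and was far lower. Kcnk15 had the lowest level of all members per kb of exon, on 1 read. Capitals mark CpG dinucleotides, written 5′ to 3′ on the strand of the gene, from RefSeq promoters on GRCm38.p6 without bases inside the annotated gene.
Kcnk5: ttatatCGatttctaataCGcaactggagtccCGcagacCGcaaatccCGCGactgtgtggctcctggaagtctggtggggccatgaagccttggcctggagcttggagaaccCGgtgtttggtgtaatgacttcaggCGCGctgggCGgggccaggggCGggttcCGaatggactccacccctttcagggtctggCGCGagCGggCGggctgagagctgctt
Kcnk16: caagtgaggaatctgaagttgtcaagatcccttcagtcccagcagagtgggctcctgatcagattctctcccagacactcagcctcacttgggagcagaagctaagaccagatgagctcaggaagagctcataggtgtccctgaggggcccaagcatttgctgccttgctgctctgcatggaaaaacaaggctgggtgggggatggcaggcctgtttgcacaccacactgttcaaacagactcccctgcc
Kcnk15: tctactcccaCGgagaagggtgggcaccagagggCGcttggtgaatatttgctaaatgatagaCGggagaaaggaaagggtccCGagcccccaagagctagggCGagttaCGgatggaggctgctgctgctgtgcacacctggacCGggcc
The Kcnk5 stretch (chr14:20181810-20182032, minus strand) held 16 CpG in 223 bases at 61.4% G and C. The Kcnk16 stretch (chr14:20269270-20269519, minus strand) held 0 CpG in 250 bases at 54.8% G and C. It ends 70 bases before the annotated gene start, and those bases are not shown. The Kcnk15 stretch (chr2:163853500-163853650, plus strand) held 7 CpG in 151 bases at 59.6% G and C.

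Every member had reads, but most were transcribed at low levels. The mean normalised count was 0 for none of the 91 genes, against 1677 of the 21817 genes of the table that had an annotated length. It was below 1 for 10 members, from 1 up to 10 for another 10, and from 10 up to 100 for 30. It was from 100 up to 1000 for 34, and 1000 or more for 7. A mean of at least 1 was reached by 81 of the 91 members (89.0%), against 81.0% of the 21817 genes of the table that had an annotated length. Together the members held 0.0614% of the summed mean of 55.9 M. Since a longer transcript collects more reads, levels are compared between genes as the mean normalised count per kb of annotated exon. On this scale the median of the members was 17.8, against 78.0 over all genes, 4.38-fold lower. The median member stood at percentile 39.0 of all genes. The members gathered between percentiles 25 and 50 of all genes, where 56 of them (61.5%) lay. Up to percentile 25 there were 16, between 50 and 75 there were 17, and above percentile 75 there were 2, Kcnk5 and Kcnj12. The members were therefore never without reads, as were most genes of the table, and rarely high. Neither the low median nor the share of genes with reads describes a single condition, since reads in any of the 18 libraries enter the mean. In bulk RNA, few cells with much RNA of a gene and many cells with little cannot be told apart.

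**Figure D1:**
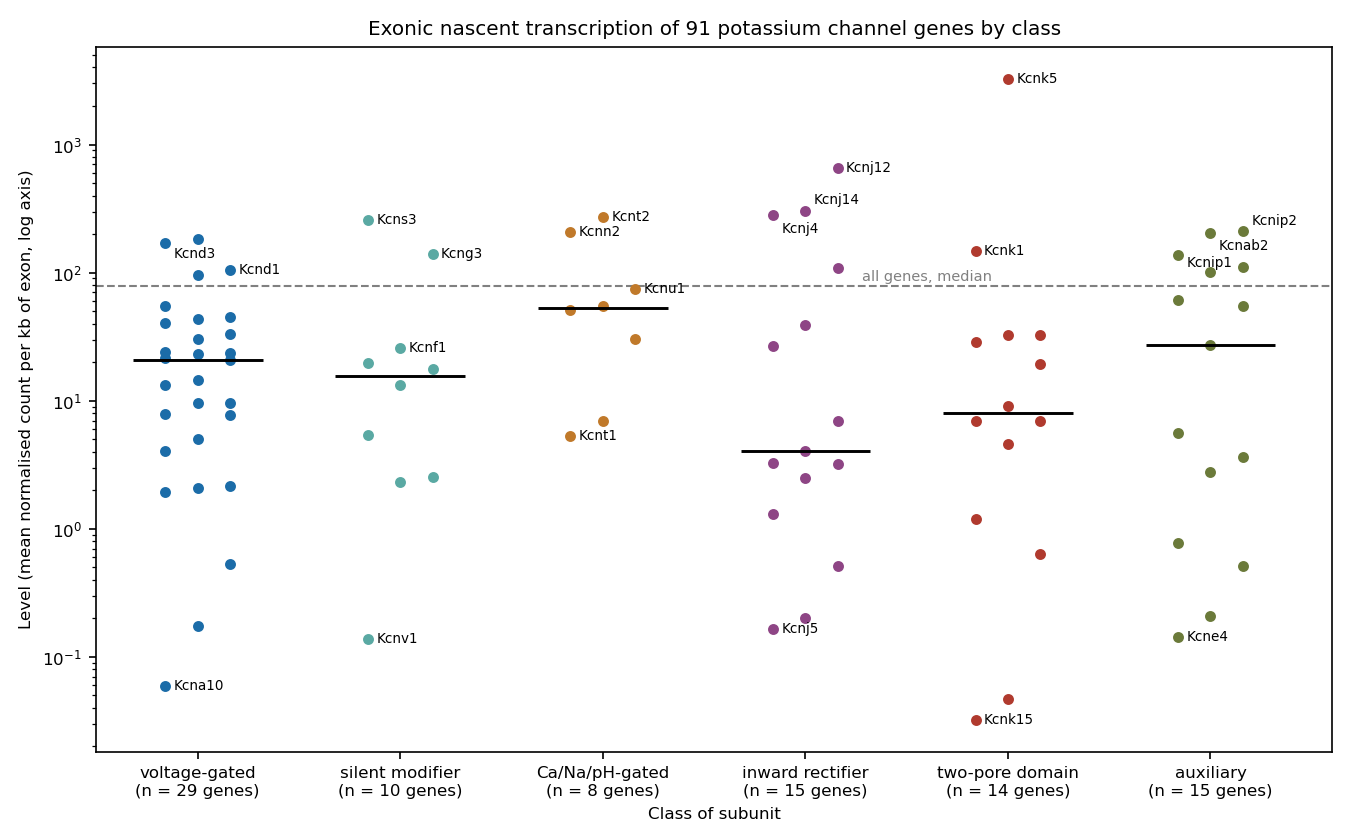
Level of each of the 91 potassium channel genes (points) by class of subunit, as the authors' mean normalised count over 18 libraries per kb of exon, on a log axis. Black lines are class medians and the dashed line is the median of all genes, 78.0. Kcnk5 at 3248 stands above all other members, and every class median lies below the dashed line.

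The number of reads behind a value was read from the lowest means. Where a gene has a single read in all, its mean depends on nothing but the scaling of the library that holds the read. The 18 most frequent low values that were no sum of others were taken as values of this kind, the number being set by the 18 libraries. They lay between 0.0216 and 0.115, a range in depth of 5.34 times. A mean of 1 stood for 8.68 to 46.3 reads over the 18 libraries, depending on which libraries held them. The 10 members below a mean of 1 thus rested on between 1 and 42 reads each. Kcnk15 had 1 read in all 18 libraries and Kcna10 had 2, both below the mean of 0.150 that 3 reads give at equal depth. Ordered by level per kb, 65 of the 90 pairs of consecutive members had overlapping 95% Poisson intervals. These are approximate, cover counting error only and take each gene as equally high in all libraries. For nearly all members the read number was estimated from the mean in this way. The error that unequal depth adds to a mean is not included. The order within the classes below is to be read with this overlap, while steps such as that from Kcnk5 to Kcnj12 are larger than counting error.

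The summed level of the members was carried by a few genes. Kcnk5 held 40.2% of the summed level per kb, the 10 highest members held 72.2%, and the lower 45 members together held 2.23%. Without Kcnk5, the next 10 members held 56.9% of what remained. Among the 10 highest were Kcnk5 at 3248, Kcnj12 at 656, Kcnj14 at 304, Kcnj4 at 284, Kcnt2 at 271, Kcns3 at 258, Kcnip2 at 211, Kcnn2 at 209 and Kcnab2 at 203 per kb of exon. The 10 came from all 6 classes. Kcnk5 was 4.95 times Kcnj12, and Kcnj12 was 2.16 times Kcnj14. The upper and lower quartiles of the members differed by 18.3 times. Thus a gene from each class stood among the 10 highest although each class median was below that of all genes.

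Among the 14 two-pore domain genes (Kcnk), whose channels carry background current, levels ran from 0.0323 to 3248 with a median of 7.97 per kb of exon. Kcnk5, which codes for a background channel activated by alkaline pH outside the cell, had a mean normalised count of 11055 (gene at chr14:20140057-20181809 of GRCm38, minus strand) and stood at percentile 97.6, rank 528 of all genes. Per kb of exon its level lay between those of the pluripotency genes Sox2 (2910) and Pou5f1 (3374), but this place depended on the length used. With no length its mean of 11055 was above those of Sox2 (5985) and Pou5f1 (7585). Per kb of gene span it was at 265, against a median of 1772 for 6 ES cell markers. Kcnk1, a weakly conducting background channel, followed at 148 per kb of exon, and Kcnk2, a channel opened by stretch and lipids, at 32.5. Kcnk5 and Kcnk1 were the members of this class above the median of all genes, and 12 of the 14 reached a mean of 1. The exceptions were Kcnk9 at 0.0470, a background channel closed by acid, and Kcnk15 at 0.0323 (gene at chr2:163853651-163859746, plus strand), a close relative of Kcnk9. Per kb of exon the class thus held both ends of the range of all 91 genes, with the low end resting on 1 read. Per kb of gene span the lowest member was Kcna10, a voltage-gated gene, at 0.0101 against 0.0106 for Kcnk15.

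Among the 15 inward rectifier genes (Kcnj), the median was 4.04 per kb of exon, the lowest of the 6 classes, and the range was 0.166 to 656. The 3 highest, Kcnj12 (656), Kcnj14 (304) and Kcnj4 (284), all code for strongly rectifying channels of one group, as does Kcnj2, which was at 3.20. The group opened by G protein subunits was uneven too. Kcnj3, its shared subunit, was at 108 and Kcnj6 at 39.1, while Kcnj9 was at 4.04 and Kcnj5, the cardiac partner of Kcnj3, at 0.166, the lowest of the class. The pores of the ATP-sensitive channels were low, with Kcnj11 at 3.27 and Kcnj8 lower still, at a mean normalised count of 0.510 over its whole exon length. In all, 4 of the 15 genes were above the median of all genes and 10 of 15 had a mean of at least 10. Within each of these groups the highest and the lowest gene differed by more than their counting intervals.

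The 29 voltage-gated pore-forming genes had a median of 20.7 per kb of exon, and none was above percentile 75 of all genes. Among the 3 highest were Kcnd3 at 169 and Kcnd1 at 105, both of the family that carries transient A-type current. The remaining Kcnd gene, Kcnd2, was at 33.1. Kcnh2, the ERG channel of cardiac repolarization, was at 95.5 and was the highest of 8 Kcnh genes. Kcnq3, which forms the neuronal M-current, was the highest of 4 Kcnq genes at 55.2. The 8 Kcna genes, relatives of the fly Shaker channel, were the low end of the class, with a median of 3.11, a highest level of 14.6 (Kcna7) and a lowest of 0.0592 (Kcna10). Per kb of exon, none of the 8 Kcna genes was above the median of all genes, against 2 of 3 Kcnd genes. Per kb of gene span the Kcna and Kcnh medians were both 1.24. Kcna2 (8.18) and Kcna7 (7.75) were then above Kcnd3 (7.31) and Kcnd2 (0.331), but below Kcnd1 (34.6). The class as a whole had 27 of 29 genes at a mean of at least 1, and the exceptions, Kcna4 and Kcna10, were both of the Kcna subfamily.

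The 10 silent modifier genes (Kcnf, Kcng, Kcns and Kcnv), whose products act only together with other voltage-gated subunits, had a median of 15.5 per kb of exon. Kcns3 was highest at 258, then Kcng3 at 140 and Kcnf1 at 26.0, and Kcnv1 was lowest at 0.137. Kcns3 and Kcng3 were the members of this class above the median of all genes.

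The 8 genes of channels opened by calcium, sodium or pH had the highest class median, 53.2 per kb of exon, and all 8 had a mean of at least 10. Among members with a mean of at least 1 only, the auxiliary median of 57.8 was higher. Kcnt2, a sodium-activated channel, was highest at 271, while its relative Kcnt1 was lowest at 5.33. Kcnn2, a small-conductance calcium-activated channel, was at 209, with Kcnn1 at 55.1, Kcnn3 at 51.3 and Kcnn4, the form of blood cells and epithelia, at 6.97. Kcnu1, a channel of sperm that responds to alkaline pH, was at 74.0, and Kcnma1, the large-conductance calcium-activated channel, at 30.2. None of the 8 was below percentile 25 of all genes, whereas each of the other 5 classes had at least 1 gene there.

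The 15 auxiliary genes had a median of 27.4 per kb of exon and split by subfamily. The 4 Kcnip genes, calcium-binding partners of the Kcnd channels, were at 211 (Kcnip2), 137 (Kcnip1), 101 (Kcnip3) and 61.2 (Kcnip4). The 4 Kcne genes, single-pass partners of Kcnq and other channels, were at 3.62 (Kcne1), 0.770 (Kcne2), 0.512 (Kcne3) and 0.142 (Kcne4). The highest Kcne gene was thus lower than the lowest Kcnip gene per kb of exon. Per kb of gene span the full separation was lost, with Kcne1 at 0.863 and Kcne2 at 0.237, both above Kcnip4 at 0.196. The other Kcnip genes stayed above every Kcne gene, and the medians were 3.88 for Kcnip and 0.176 for Kcne. Kcnab2, a beta subunit of the Kcna channels, was at 203, above every Kcna gene, with Kcnab3 at 27.4 and Kcnab1 at 5.63. Of the beta subunits of Kcnma1, Kcnmb4 was at 110 and Kcnmb2 at 54.4, while Kcnmb3 was at 2.77 and Kcnmb1, the smooth muscle form, at 0.210. 

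By subfamily letter, among those with at least 3 genes, the highest medians were those of Kcnip (119) and Kcnd (105), the auxiliary and pore-forming subunits of the same channel. Kcnn (53.2), Kcnq (33.7), Kcnmb (28.6), Kcnab (27.4), Kcnc (26.0), Kcnh (21.8), Kcng (18.8) and Kcns (13.2) followed, and Kcnk (7.97), Kcnj (4.04), Kcna (3.11) and Kcne (0.641) were lowest. Per kb of gene span the order changed, with medians of 12.2 for Kcns, 11.6 for Kcnab, 7.31 for Kcnd and 3.88 for Kcnip. The Kcnk and Kcnj subfamilies had low medians but held the 4 highest genes of all, so their medians and their highest genes pointed in opposite directions. These orders are descriptions of a pooled mean, and the genes of a subfamily are not replicates.

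**Figure D2:**
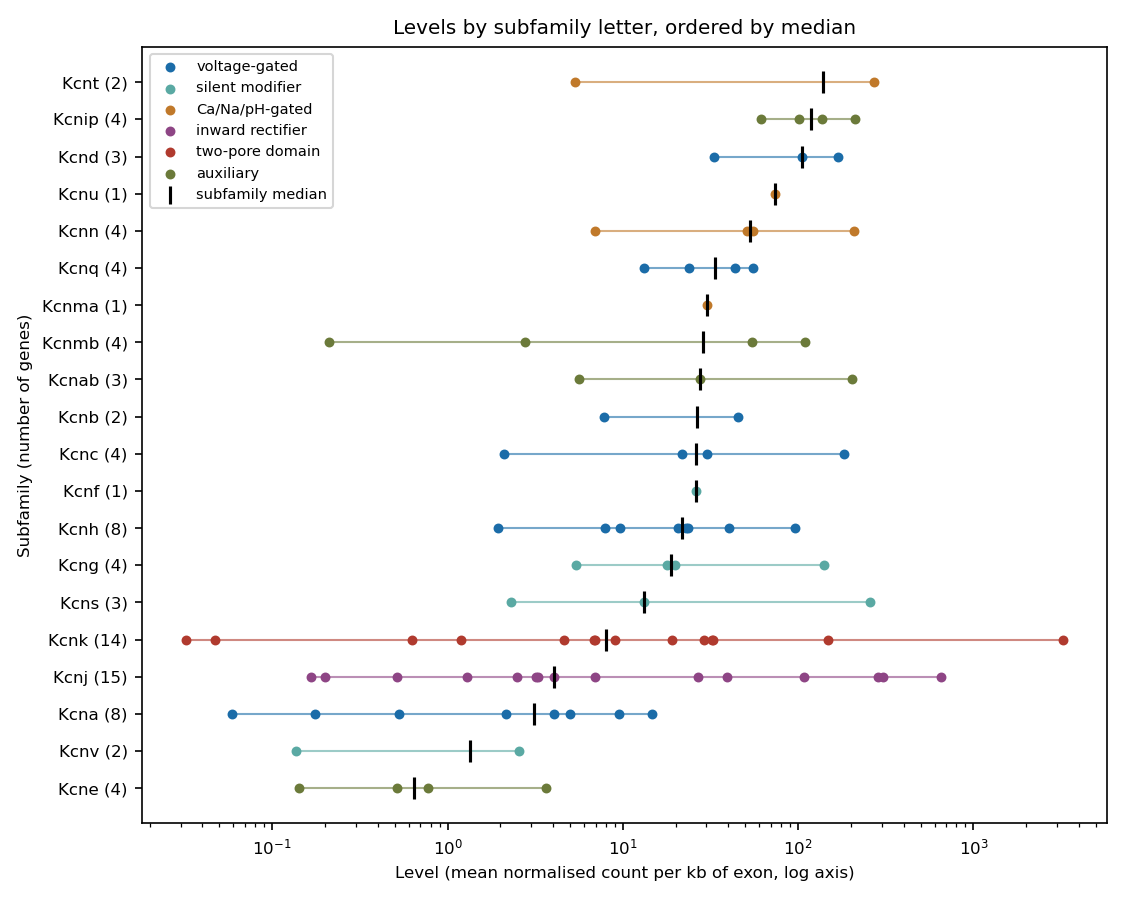
Levels of the potassium channel genes by subfamily letter, ordered by the subfamily median (black tick), with each gene as a point coloured by class and the mean normalised count per kb of exon on a log axis. Lines join the lowest and highest gene of a subfamily. The Kcnk genes span 0.0323 to 3248, while the 4 Kcnip genes lie within 61.2 to 211.

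The levels were set beside those of marker genes and of other ion channels. The 6 ES cell markers (Pou5f1, Sox2, Nanog, Zfp42, Esrrb and Tfcp2l1) were all above percentile 75 of all genes with a median of 7120 per kb of exon. Of 6 neuron markers, the median was 16.4, from 1.66 (Snap25) to 1811 (Stmn2). The medians of 6 muscle and 5 fibroblast markers were 29.9 (Myh6 0.969 to Ryr2 439) and 3.86 (Dcn 0.337 to Pdgfrb 174). No defining marker was at 0, and the part that other cell types had in the channel levels was not tested. The potassium channel median of 17.8 lay between the neuron and muscle medians and above the fibroblast median. This place depended on the measure. Per kb of gene span the channel median of 1.73 was below the neuron (2.99) and muscle (5.54) medians and above that of fibroblast markers (1.51). By median percentile per kb of exon the channels, at 39.0, were above the neuron (38.3) and muscle (38.2) markers. Among other channel families, the medians were 2.81 for 10 sodium channel genes (Scn), 9.81 for 10 calcium channel genes (Cacna1), 14.9 for 22 TRP channel genes, 63.0 for 4 HCN pacemaker genes and 363 for 9 genes of the ClC chloride family, several of which act in intracellular organelles. Of these, 1, 1, 4, 2 and 6 genes were above the median of all genes, against 19 of the 91 potassium channel genes. The potassium channel genes thus had a median above those of the sodium and calcium channel genes and below that of the ClC genes, each with wide overlap between single genes.

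Long genes among the members were at higher levels than short ones per kb of exon, but at lower levels per kb of gene span. Gene spans ran from 1.90 to 1135 kb, and 22 of the 91 members (24.2%) were longer than 100 kb, against 11.4% of all genes. The 22 had a median level of 36.1 per kb of exon and the other 69 a median of 9.03. The same direction was seen over all genes, with medians of 225 and 64.7. Per kb of gene span the medians were 0.649 for the 22 long members and 1.96 for the others, and 8.95 and 14.3 over all genes, so the direction turned. The rank correlation of level per kb of exon with span was 0.48 over the 91 members and 0.42 over all genes, as a description across genes that share the same libraries and the same annotation.

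Adjacent potassium channel genes differed from 1.88-fold to 5154-fold. Ratios for members that are not adjacent were not computed, and the quartiles of all members differed by 18.3 times. The values below therefore do not set neighbours apart from other pairs. A total of 10 pairs of members, involving 18 genes, were neighbours in the order of the genes of the table along the genome. Annotated genes that the table lacks can lie between them, as Gm31641 does between Kcnj6 and Kcnj15. The median ratio of the higher to the lower level per kb was 7.22, with 4 ratios over 10 and 2 under 3. Kcnk5 and Kcnk16 lie on the same strand of chromosome 14, 79.6 kb apart, and their levels of 3248 and 0.630 differed 5154-fold (95% counting interval 3610 to 7639). Kcnk16, known from the pancreas, rested on 13 to 69 reads, of which the interval takes the estimate of 30. Their printed upstream stretches held 16 and 0 CpG. Kcnmb1 lies within Kcnip1 on chromosome 11, on the opposite strand, and the levels of 137 for Kcnip1 and 0.210 for Kcnmb1 differed 653-fold (413 to 1102). The nested gene rested on 8 to 40 reads, taken as 18 in the interval, inside a host with a mean normalised count of 849. On chromosome 3, Kcna2 at 9.53 was 161 times Kcna10 at 0.0592, but with the 2 reads of Kcna10 the interval ran from 44.5 to 1330. At the other end, Kcna6 and Kcna1 on chromosome 6 differed 1.88-fold (1.59 to 2.22) and Kcna2 and Kcna3 1.90-fold (1.64 to 2.22). The Kcna genes thus gave both the 2 closest pairs and a pair far apart.

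**Figure D3:**
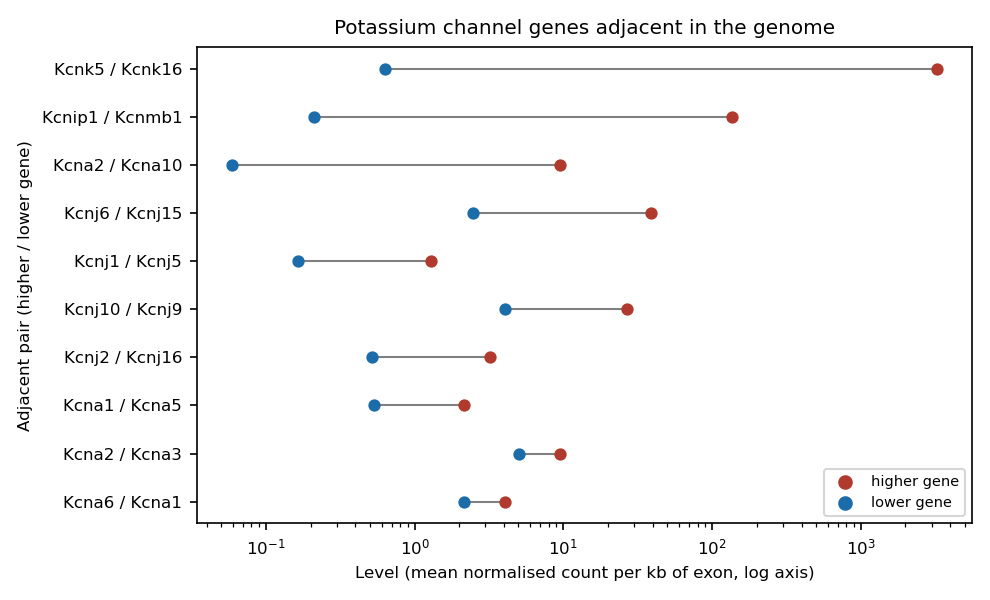
Levels of the 10 pairs of potassium channel genes that are adjacent among the genes of the table along the genome. The higher gene is in red and the lower gene in blue, as the mean normalised count per kb of exon on a log axis. Kcnk5 and Kcnk16 are farthest apart, 5154-fold, and the Kcna6 and Kcna1 levels are closest, 1.88-fold.

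Transcription upstream of the genes was seen in a second table, of PROMPTs. PROMPTs are unstable transcripts that run antisense to a gene from just upstream of its start, and the authors placed them within 1000 bp of a start. The table gives no coordinates, so the windows were taken here as 1000 bp each and their means are compared without a length. A PROMPT was listed for 76 of the 91 members. Of the 15 others, 14 had another annotated gene on the opposite strand in that window, against 5 of the 76. Reads were present for 64 of the 76 (84.2%), and 25 (32.9%) had a mean of at least 1. Among the PROMPTs of 18074 coding genes these shares were 78.5% and 42.8%, and the medians were 0.362 for the members and 0.580 for coding genes. Over all 32253 PROMPTs of the table the shares were 72.1% and 33.7% and the median 0.262. The share of members at a mean of 1 was thus below that of coding genes and about that of all PROMPTs, and the median lay between those of both backgrounds. For 12 members the PROMPT was listed at 0, and 3 reads at equal depth, the limit that a count of 0 allows, would give a mean of 0.146.

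The 2 highest PROMPT means did not belong to the highest genes, while the next belonged to Kcnk5, the highest gene of all. Kcna7, a muscle and pancreas relative of Shaker, had a PROMPT mean of 50.3 (390 to 1886 reads) beside a gene mean of 31.9. Kcnh4, a neuronal channel of the ELK group, had 14.3 (112 to 537 reads) beside a gene mean of 37.9. Kcnk5 came next at 6.03 (47 to 226 reads), beside a gene mean of 11055. Only Kcna7 and Kcnh4 had a PROMPT mean of at least 10. Downstream of Kcna7, Ruvbl2 is transcribed toward it on the opposite strand, that of the PROMPT, at 1044 per kb of exon. The 3′ end of Ruvbl2 lies 16.1 kb from the window, beyond the end of Kcna7, and its part in the Kcna7 value was not tested. In 4 members, Kcna7, Kcna10, Kcnk15 and Kcne2, the PROMPT mean was above the gene mean. For Kcna10 the values were 1.18 and 0.128, for Kcnk15 0.571 and 0.0647, and for Kcne2, an accessory subunit of gastric and cardiac channels, 2.67 and 1.36. The lowest gene of the voltage-gated class and that of the two-pore domain class, Kcna10 and Kcnk15, therefore had more antisense reads upstream than sense reads over their exons.

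Over the 76 members the PROMPT mean and the gene level went together only loosely. The 38 members with the higher levels had a median PROMPT mean of 0.622 and the other 38 a median of 0.222. A mean of at least 1 was seen in 15 and 10 of them, and 3 and 9 were at 0. The rank correlation was 0.32 over the members and 0.64 over coding genes, as a description across genes from the same 18 libraries. The members covered a narrower range of levels, with quartiles of 2.98 and 54.7 per kb of exon against 1.66 and 573 over all genes. The part of this range in the lower correlation was not tested. Kcnj12, the second-highest gene, had a PROMPT mean of 0.143, and Kcns3, at a level of 258, had none.

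**Figure D4:**
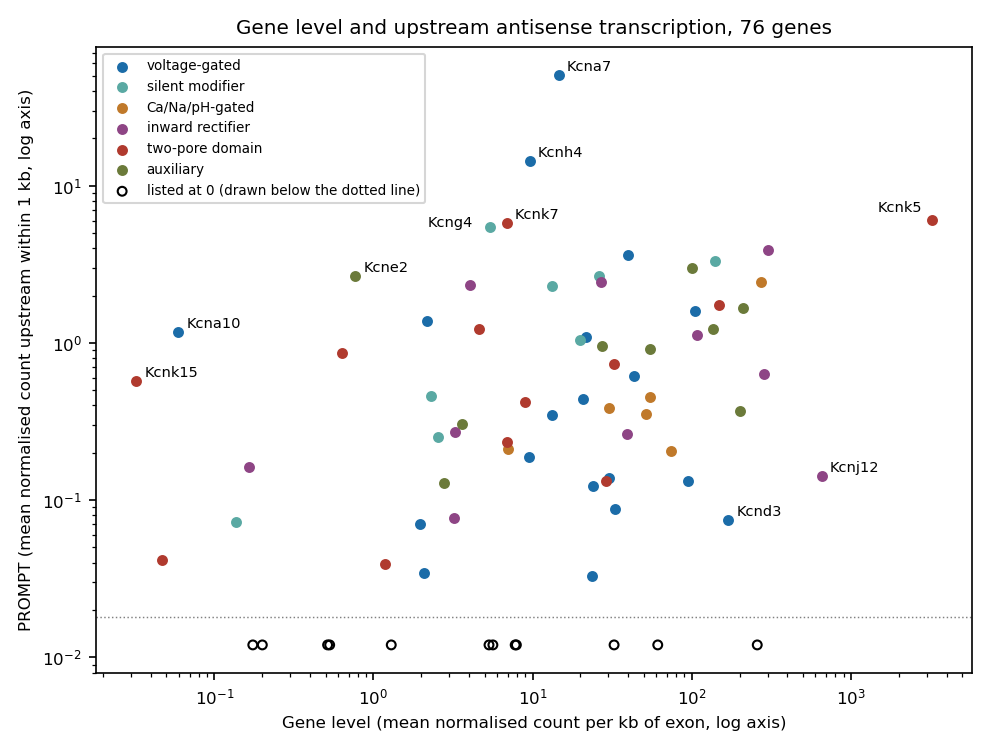
Gene level (mean normalised count per kb of exon) against the PROMPT mean (normalised count, upstream within 1000 bp) of 76 potassium channel genes, both on log axes, coloured by class. Open points below the dotted line are the 12 genes whose PROMPT was listed at 0. Kcna7 and Kcnh4 have the highest PROMPTs at middling gene levels, and Kcna10 and Kcnk15 lie at the left with PROMPT means of 1.18 and 0.571.

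Promoter sequence was examined in windows from 250 bases before to 50 after the RefSeq start, for the 62 members whose RefSeq start lay within 1000 bp of the annotated gene start. CpG is the dinucleotide that DNA methylation acts on, and promoters rich in it often belong to broadly used genes. A window was taken as CpG-rich when the observed over expected number of the letters CG was above 0.6 and the share of G and C above 50%. This held for 21 of the 62 members (33.9%), against 51.1% of 14513 genes measured the same way. The median observed over expected value was 0.456 for the members and 0.645 for all genes. The CpG-rich members had a median level of 26.7 per kb of exon and the 41 others a median of 6.89. Over all genes the medians were 465 and 5.99, so CpG-poor members were at about the level of CpG-poor genes while CpG-rich members were far below CpG-rich genes. Of the 31 members with higher levels 16 were CpG-rich, and of the other 31 only 5 were. The rank correlation of level with the observed over expected value was 0.42 over the members and 0.63 over all genes. It is again a description, and the members again covered a narrower range of levels.

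By class, the matched genes were few, and a difference between classes was not tested. Class sizes are in brackets. CpG-rich windows were found in 11 of 19 matched voltage-gated genes (29), 3 of 11 two-pore domain genes (14) and 3 of 11 inward rectifier genes (15). The counts were 2 of 5 for silent modifier genes (10) and 2 of 12 for auxiliary genes (15). For channels opened by calcium, sodium or pH the count was 0 of 4 (8). Beside these stand 33.9% of the 62 matched members and 51.1% of all genes measured the same way. Kcnk5 had an observed over expected value of 0.878, and Kcnk16 had 0.0823. The relation had exceptions in both directions. Kcnk15, with 1 read, was the single CpG-rich member with a mean below 1, at an observed over expected value of 0.753. Its window held 24 CpG, of which the shorter stretch printed last above held 7. The CpG-rich call is for the window and not for that stretch. Kcnt2, at 271, was the highest of the CpG-poor members, at 0.409. Kcna10, with 2 reads, had no CpG at all in its window. A CpG-rich window was thus found at both the highest and the lowest of the 91 genes per kb of exon, the lowest resting on 1 read.

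**Figure D5:**
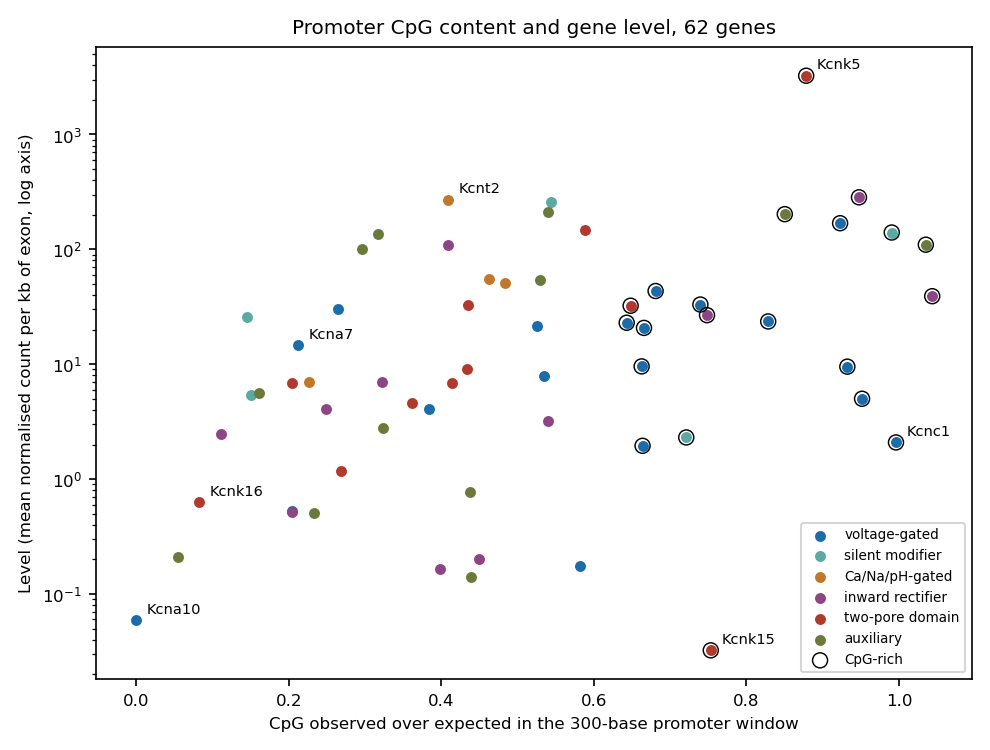
CpG observed over expected in the promoter window (250 bases before to 50 after the RefSeq start) against gene level per kb of exon on a log axis, for 62 potassium channel genes coloured by class, with CpG-rich windows ringed. Kcnk5 at 3248 and Kcnk15 at 0.0323 are both CpG-rich, while Kcnt2 at 271 is not.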

How the data were processed

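TT-seq was done by the authors on 18 libraries, 3 in each of 6 groups, taken from the labels. Trim Galore (trimming), STAR (alignment to mm10), featureCounts (counting by strand) and DESeq2 (normalisation) were the tools of the authors. Of 4 deposited tables, those of genes and PROMPTs were used. The only column used was the deposited mean signal, which is the authors' mean of normalised counts over all libraries and is given without a value per library. The other deposited columns hold the authors' own comparison of SPT16-depleted with control libraries (log2 fold change, its standard error, p and adjusted p) and were not used, so no comparison of conditions was made and no p-value was computed. The tables of distal DNaseI sites and eRNAs, which were not joined to genes, were not used.

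Each mean was divided by the length of the union of exons in Gencode vM21 on GRCm38, found for 21817 of 21859 genes by gene ID. The study names a later Gencode release for the gene files of its downstream analyses, and does not say whether the counts were made on it. Over 15428 genes with a mean of at least 10, the log mean rose by 0.99 per unit of log exon length and by 0.094 per unit of log gene span. Exons overlapped those of another gene on the same strand in Kcnab2 (2.24% of exon bases) and Kcnk4 (13.1%). Depth was read from the 18 means given by single reads, and 97.3% of 817 genes of low mean were sums of 1 to 3 reads within a tolerance of 4e-08. The search for these values was tested on simulated data. No per-library column was left unmapped.

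The members, classes, marker lists and other channel families were chosen with earlier results of these data known. Genes were named when among the 3 highest of a class, the 10 highest of all, the lowest of a class, the highest of a subfamily, or the 3 highest PROMPTs, and 1 gene that this rule names is not reported here. The remaining named genes, chosen after their values were seen, are partners or neighbours of these, members of the same group, or exceptions to a count. Protein sequences were not analysed here. Alternatives were other thresholds, gene span or no length, and leaving out low, overlapping or auxiliary members. Tables were read with pandas 2.3.3 in Python 3.11.15, values computed with scipy 1.17.1 and numpy 2.4.6, and figures drawn with matplotlib 3.10.9.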

Additional observations from a re-analysis of the deposited data

How the results depend on the processing

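The count of 81 members with a mean of at least 1 became 71 at a mean of at least 10 and 91 above 0. With gene span in place of exon length, the median of the members was 1.73 per kb (13.3 over all genes), and the class medians were 1.73 for voltage-gated, 2.94 for silent modifier, 3.30 for calcium-, sodium- or pH-gated, 1.64 for inward rectifier, 1.02 for two-pore domain and 0.571 for auxiliary genes. The auxiliary class thus went from the second highest to the lowest median, and the order of the classes changed with the length used. The median percentile was 36.6 with gene span and 40.7 with no length, and the share of the 10 highest members was 73.6% and 66.0%. The 10 highest by exon and by span shared 7 genes. With only members at a mean of at least 1, the median was 23.0, and the class medians were 21.7 for voltage-gated, 17.8 for silent modifier, 6.97 for inward rectifier, 14.1 for two-pore domain and 57.8 for auxiliary genes, against an unchanged 53.2 for calcium-, sodium- or pH-gated genes, so the top place changed with this filter as well. In a comparison chosen after seeing the data, the median of members over 100 kb divided by that of the others was 4.00 per kb of exon and 0.331 per kb of gene span, and the subfamily median of Kcnip went from 119 to 3.88 and that of Kcns from 13.2 to 12.2. Without the auxiliary subunits the median was 16.2, and without the 2 members that overlap another gene it stayed at 17.8. PROMPTs of 25 members had a mean of at least 1 and those of 2 a mean of at least 10, against 64 with any read.

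No paired analysis was possible because the tables hold no value per library, and for the same reason no library was left out. A value that a single library gave cannot be told apart from one shared by all. Counts of a few reads limit the levels of the 10 members below a mean of 1.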
